A study of Mus musculus with 4 samples.

Results

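The comparison described here is between 2 microarrays of type 1 conventional dendritic cells (cDC1) that lack the receptor XCR1. One array held RNA of XCR1-deficient cells given lipopolysaccharide (LPS) and recombinant mouse XCL1, and the other held RNA of XCR1-deficient cells given LPS alone. Each difference is the log2 signal of the first array minus that of the second, taken over 25335 annotated probe sets of the 41345 on the array. The study has 4 arrays in all, the other 2 being the same treatments in wild-type (WT) cells. All 4 groups were C57BL/6 mice, female by the labels and aged 10 weeks. LPS was used at 100 ng/ml in every group, so no untreated array stands behind any value, and XCL1 was used at 100 ng/ml where it was added. How the Xcr1 gene was inactivated, the tissue of origin, the purity of the cells and how long they were treated are not stated in the labels. Each group had 1 array, and differences between arrays are given without error or test. Higher and lower mean a difference of at least 1.5-fold between the arrays, which is 0.58 on the log2 scale.

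XCL1 is a chemokine made mainly by natural killer cells and activated CD8 T cells, and XCR1, a G protein-coupled receptor, is its known receptor in mice. Among leukocytes XCR1 is found chiefly on cDC1, the dendritic cells that take up dead cells and present their antigens to CD8 T cells. LPS is sensed through a separate pathway, the receptor complex of Toll-like receptor 4 and its partner MD-2, which leads to NF-kB and interferon gene programmes. Small nucleolar RNAs, which enter the results below, are short RNAs of the nucleolus. Box C/D members guide methylation of ribosomal RNA, box H/ACA members guide its pseudouridylation, and a few take part in cleavage of the ribosomal RNA precursor.

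The signal of Xcr1 itself checks the genotype label. On the WT arrays it was 6.42 with LPS alone and 7.19 after XCL1 was added, and on the matching XCR1-deficient arrays 5.54 and 5.11. Pairs of signals below are given in this order. Both XCR1-deficient signals lay below both WT signals, and near the signal limit of 5.43 used for all genes. A probe outside the deleted part would check nothing, and the labels do not say which part was deleted. Xcl1, the ligand's own gene, read 7.59 with LPS and 7.70 with LPS and XCL1 in the XCR1-deficient cells, so endogenous Xcl1 signal was present on both arrays.

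The XCR1-deficient arrays resembled each other closely. Of 11068 named genes past the limit, 52 were higher (0.47%) and 60 lower (0.542%) with XCL1, 112 in all or 1.01%. In the WT pair the same call gave 62 genes, or 0.56%, with 25 higher (0.226%) and 37 lower. The difference between the pairs has no test. Pearson's correlation across these genes was 0.992 within the XCR1-deficient pair and 0.993 within the WT pair, and genes are not independent replicates. The SD of the difference over genes was 0.197 in the XCR1-deficient pair and 0.176 in the WT pair. The median difference in the XCR1-deficient pair was 0.04, and 59.6% of the genes were above 0. The balance of the calls rested on this small shift: with each array centred on the median of its genes, which moved differences by -0.07, 25 genes were higher and 88 lower. Over all annotated probe sets, 14218 were past the limit and 223 of them were called, or 1.57%, with 124 higher (0.872%) and 99 lower (0.696%).

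Short stretches of sequence are shown first for the genes whose results are described by family below. Bst2 and Ifit3b, a pair of interferon-stimulated genes, were higher with XCL1, and Ifna4, an interferon gene, was lower. Each has near its start the letters GAAA, then any 2 bases, then GAAA again, a pattern of the kind that interferon regulatory factors bind, searched on both strands of the 250 bases before to 50 bases after each start in RefSeq (GRCm38.p6). Capitals mark the matches, which in Bst2 overlap each other and in Ifit3b lie on the opposite strand. The stretches are chr8:71537577-71537612 on the minus strand, chr19:34607759-34607822 on the plus strand and chr4:88841598-88841717 on the plus strand.
Bst2: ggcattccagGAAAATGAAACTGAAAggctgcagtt
Ifit3b: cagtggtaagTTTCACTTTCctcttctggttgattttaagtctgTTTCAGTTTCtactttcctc
Ifna4: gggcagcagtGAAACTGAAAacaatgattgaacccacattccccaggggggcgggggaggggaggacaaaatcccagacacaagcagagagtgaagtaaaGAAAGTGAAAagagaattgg

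The pattern was in 1131 of 32851 RefSeq start windows, or 3.44%. Counted by gene, as in the shares that follow, it was in 357 of 8943 named genes past the limit with a window (3.99%). Among the genes higher with XCL1 it was in 3 of the 44 that had a window (6.82%), namely Bst2, Ifit3b and Mmp13. Among the genes lower with XCL1 it was in 2 of 43 (4.65%), namely Ifna4 and Rpl5. In the list of interferon-stimulated genes it was in 21 of 37 (56.8%), most of which did not reach 1.5-fold, as given below. A match is a description of the letters and no evidence of binding.

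Mature microRNA sequences are shown for the microRNA genes at the lower and upper ends of their class, with the seed, bases 2 to 8, in capitals. They lie at chr1:191998602-191998623, chr13:58392800-58392821 and chr13:58392841-58392863 of GRCm38.p6, each on the minus strand. The array reports a signal for the gene, and which arm or precursor its probes read was not examined.
mmu-miR-3473c: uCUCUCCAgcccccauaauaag
mmu-miR-7a-1-3p: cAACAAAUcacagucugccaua
mmu-miR-7a-5p: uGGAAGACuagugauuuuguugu

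The class of transcript that stood furthest from the others was the small nucleolar RNAs. Of 82 such genes on the array 74 were past the limit, and 22 of these (29.7%) were higher with XCL1 and 0 lower, beside 0.872% of all annotated probe sets higher. Their median difference was 0.41, and 68 of 74 were above 0. In the WT pair, where 0.317% of annotated probe sets were higher, 0 of the same 74 were called, their median difference was 0.01, and 38 were above 0. Of 3496 named genes with mean signals between the quartiles of these genes, 7.55 to 10.0, 7 were higher (0.200%) and the median difference was 0.06. The class was picked out after its values had been seen, so the count describes these arrays and is no test.

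**Figure D1:**
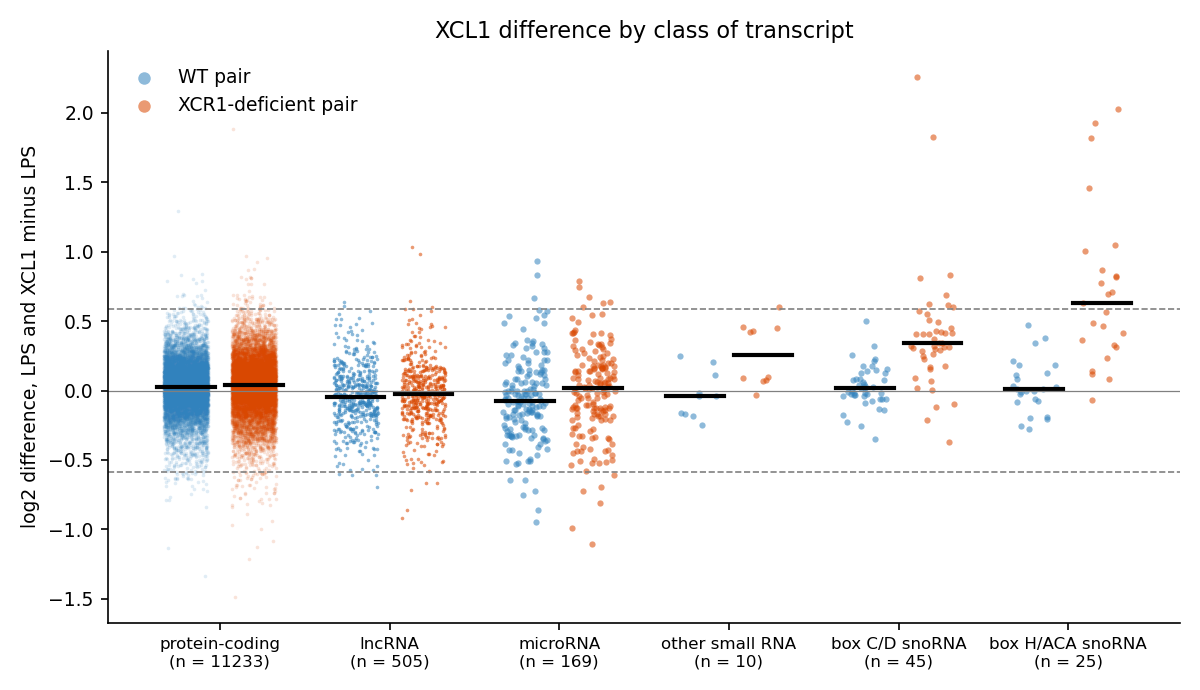
Log2 difference (LPS and XCL1 minus LPS) of each gene past the signal limit, by class of transcript, for the WT pair (blue) and the XCR1-deficient pair (orange); black bars are medians and dashed lines mark 1.5-fold. The medians of box C/D and box H/ACA small nucleolar RNAs in the XCR1-deficient pair were 0.34 and 0.63, against 0.04 for protein-coding genes.

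Box H/ACA members made up most of the higher ones. Of the H/ACA members 13 of 25 (52.0%) were higher, with a median of 0.63. Among box C/D members 8 of 45 (17.8%) were higher, with a median of 0.34. The H/ACA count includes Snora73a and Snora73b, which act in precursor cleavage and may be 1 signal, as given below. The remaining higher gene, AF357399 (0.78), carries no family in its name. Small Cajal body RNAs, which guide modification of spliceosomal RNAs, had 1 of 5 higher, Scarna8 at 1.07, and a median of 0.38.

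The largest difference belonged to Rnu3a, a gene of the U3 RNA, which acts in cleavage of the ribosomal RNA precursor and which RefSeq files under small nuclear RNA. It read 7.73 and 7.80 in WT and 7.01 and 9.27 in XCR1-deficient cells, a 4.79-fold difference in the latter. U3 has several near-identical copies, so the gene of origin is uncertain. The WT arrays lay between the XCR1-deficient arrays.

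Snora73b and Snora73a encode copies of U17, an H/ACA RNA of precursor cleavage rather than of modification. Snora73b read 8.08 and 8.43 in WT and 7.58 and 9.61 in XCR1-deficient cells, a difference of 2.03. Snora73a read 7.74 and 8.12 in WT and 7.37 and 9.19 in XCR1-deficient cells, a difference of 1.82. The pair is so alike in sequence that probes may not separate them, and they are better counted as 1 signal.

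Snora61, an H/ACA guide, read 8.04 and 8.23 in WT and 7.33 and 9.25 in XCR1-deficient cells, a difference of 1.92. Snord13, a box C/D RNA with its own promoter, read 8.99 and 9.17 in WT and 8.71 and 10.53 in XCR1-deficient cells, a difference of 1.83. Snora31, an H/ACA guide, read 7.83 and 8.04 in WT and 7.43 and 8.89 in XCR1-deficient cells, a difference of 1.46. In each of these the array with LPS alone was the lowest of the 4 and the array with LPS and XCL1 the highest.

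The other 16 higher members ranged from 1.05 for Snora7a and 1.00 for Snora16a down to 0.62 for Snord52 and 0.60 for Snord15a. Just outside the threshold lay Snord73b (0.57), Snora2b (0.56) and Snord111 (0.55). At the lower end were DQ267102 (-0.38), Snord70 (-0.37) and Snord83b (-0.21). The 22 higher members had WT differences from -0.08 to 0.50.

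The 22 were chosen by the difference between the XCR1-deficient arrays, which favours genes with extreme values on either, so their place beside the WT arrays is a description. The median signal of the 22 was 8.07 and 8.33 on the WT arrays, 7.75 on the XCR1-deficient array with LPS and 9.31 on that with LPS and XCL1. The array with LPS and XCL1 was the highest of the 4 for 21 of the 22, and the array with LPS alone was the lowest for 20. Over all 74 members these counts were 58 and 48. Snord52 was the exception to the first count, with a WT signal of 5.96 above the 5.57 read with LPS and XCL1.

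**Figure D2:**
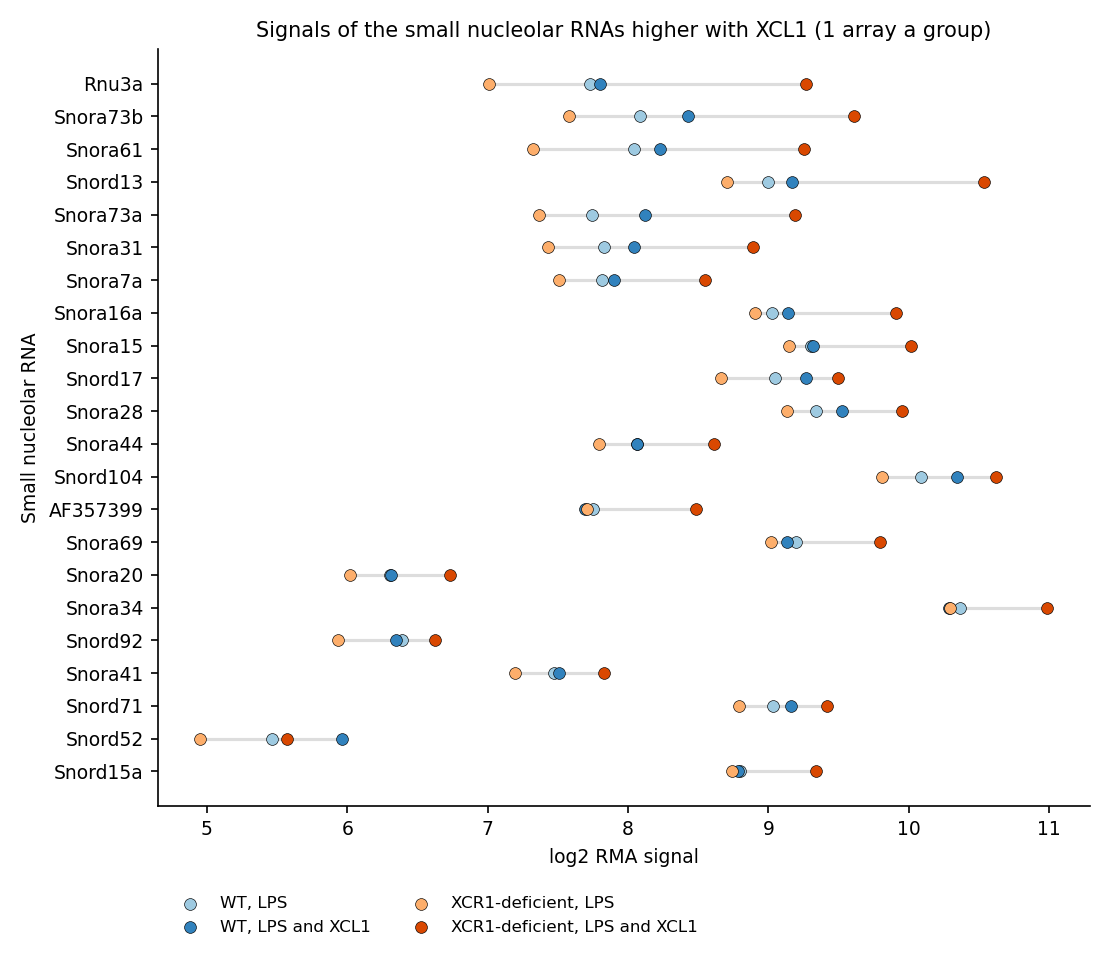
Log2 RMA signals of the 22 higher small nucleolar RNAs on the 4 arrays, 1 point an array, with grey lines spanning their range. The XCR1-deficient array with LPS and XCL1 (dark orange) is the highest for 21 and the XCR1-deficient array with LPS (light orange) the lowest for 20.

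Longer members were called more often. By RefSeq length 14 of 27 members of at least 100 bases were higher, against 8 of 47 shorter ones. All 4 members of at least 200 bases were higher, namely Rnu3a, Snord17, and Snora73a and Snora73b, which may be 1 signal. Just under that cut, Snora74a (198 bases, 0.41) and Snora23 (184 bases, 0.12) were not called. RefSeq gives Snora61 62 bases, Snora20 61 and Snora19 56, far under the H/ACA median given below. Whether these are whole lengths was not examined. Median lengths were 116.5 bases for the higher members and 75.5 for those not called. Across the 74 genes, which share these arrays, Spearman's rho between length and difference was 0.34 in the XCR1-deficient pair and 0.08 in the WT pair. Length and family go together, since the median was 118 bases for H/ACA and 68 for C/D members, and within the families rho was 0.13 and 0.24. How RNA size bore on recovery from these samples was not tested.

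Most small nucleolar RNAs are cut from introns of host genes. Hosts were taken by position alone, without regard to strand, and each host signal came from the brightest probe set. Of the 74, 57 lay within a measured host gene, 43 hosts in all. Of these hosts 0 were called, beside 1.01% of all named genes, and their median was 0.01. Rabggtb (1.89) and Snhg17 (1.04), given below, also span small nucleolar RNAs and were higher, but hold none of the 74. Other probe sets of a host can differ. Nop56, the host of Snord110, gave 0.09 by its brightest probe set and 1.03 and 0.76 by its others. The 18 higher members with a measured host lay in 15 hosts, whose differences ran from -0.28 to 0.52 with a median of -0.07. All 18 lay above their host, which follows from their being called while no host was. Over all 57 members, 51 lay above their host. Snhg3, the non-coding host of Snora73a and Snora73b, differed by 0.31. Snhg12, the host of Snora61, Snora16a and Snora44, differed by -0.07. Tpt1, which hosts Snora31 and encodes a translationally controlled protein, differed by -0.27, and Rpl32, a ribosomal protein gene that hosts Snora7a, by -0.07. The host nearest to the threshold was Kansl2 (0.52), which holds Snora34 (0.70).

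**Figure D3:**
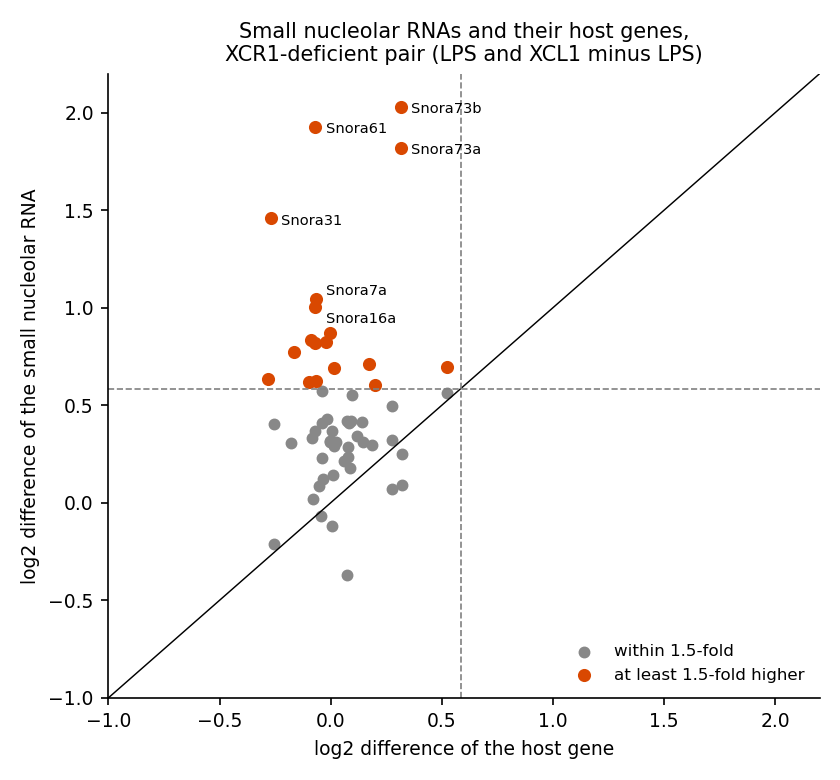
Log2 difference of each small nucleolar RNA (vertical) against that of its host gene (horizontal) in the XCR1-deficient pair; the diagonal marks equal differences and dashed lines 1.5-fold. By its brightest probe set no host lies beyond 1.5-fold, so all 18 higher members (orange) lie above the diagonal by their selection.

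Some probe sets of protein-coding and non-coding genes that span a small nucleolar RNA were also higher. Of probe sets of named genes that span an annotated one, 7 of 336 were higher (2.08%), against 56 of 11288 others (0.496%). The 7 belong to 5 genes, and a probe set of Rpl5, which spans Snord21, was lower (-0.74). Rabggtb, a subunit of the enzyme that prenylates Rab proteins, spans Snord45b and Snord45c and read 6.67 and 7.46 in WT and 6.31 and 8.20 in XCR1-deficient cells. Its difference of 1.89 was the largest positive one among named genes, and its WT difference of 0.79 went the same way.

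Second probe sets of these genes often differed from the first. Snhg17, a non-coding host transcript, had probe sets at 1.04, 1.04 and 0.15. Nop56, a core protein of box C/D particles, had probe sets at 1.03 and 0.76 while its brightest gave 0.09. Taf1d, a subunit of the RNA polymerase I factor SL1, had 1 of 11 probe sets higher, at 0.96, with the others from -0.15 to 0.39. Ptcd3, a mitochondrial ribosome-associated protein, had probe sets at 0.61 and 0.07. Where the probes lie was not examined, so a probe set that reads the embedded small RNA and one that reads the host transcript cannot be told apart here.

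Of 10 other small non-coding RNAs past the limit, 1 was higher and 0 lower, and 9 lay above 0, with a median of 0.26 in the XCR1-deficient pair and -0.04 in the WT pair. The higher one was the Y RNA Rny3 (0.60). Next to it were the Y RNA Rny1 (0.46), the 5S ribosomal RNA gene n-R5s136 (0.45), the RNase P RNA-like gene Rprl2 (0.43) and the minor spliceosome RNA Rnu12 (0.42). The other 5, which include the RNAs of the 7SK particle (Rn7sk, 0.09), of RNase P (Rpph1, 0.07) and of telomerase (Terc, 0.10), lay between -0.03 and 0.10. The vault RNA gene Vaultrc5 (0.98, or 0.02 against the limit) was counted among the named genes and not here. MicroRNA genes had 6 higher and 6 lower of 169 (7.10%), with a median of 0.02, beside 1.57% of all annotated probe sets called. In the WT pair 9 of them (5.33%) were called, beside 0.95% of all annotated probe sets.

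Mir3473c, whose mature form is shown above, was the lowest microRNA gene, with signals of 5.56 and 6.50 in WT and 6.53 and 5.42 in XCR1-deficient cells. Mir7-1, the host of both miR-7a strands shown above, was the highest, with 6.07 and 6.56 in WT and 5.78 and 6.57 in XCR1-deficient cells. Both signals are dim, and the XCR1-deficient and WT differences had opposite signs for Mir3473c (-1.11 and 0.93) and the same sign for Mir7-1 (0.79 and 0.49). Other microRNA genes called higher were Mir296 (0.74), Mir1932 (0.67), Mir3097 (0.64), Mir23a (0.63) and Mir3961 (0.60). Others called lower were Mir186 (-0.99), Mir1188 (-0.81), Mir1970 (-0.72), Mir540 (-0.70) and Mirlet7a-1 (-0.61). After raising each signal below the limit to the limit, Mir186 gave -0.26, Mir1188 -0.27 and Mir540 -0.36.

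The most negative value of any annotated gene was Olfr331, an olfactory receptor gene, with 6.44 and 6.65 in WT and 7.29 and 4.66 in XCR1-deficient cells. With XCL1 its signal fell under the limit, and measured against the limit it was at least 3.64-fold lower.

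The pathway that XCL1 would engage through XCR1 showed no member at 1.5-fold, beside 1.01% of all named genes called. The list held 31 genes past the limit for the receptor, its ligand, G protein subunits, regulators of G protein signalling, arrestins, receptor kinases and downstream phospholipases and kinases. Their median difference was -0.01 and 15 of 31 were above 0, beside a median of 0.04 for all named genes. Values ran from -0.43 for Xcr1 to 0.30 for Plcb3, a phospholipase C. Gnai2, a Gi subunit that couples chemokine receptors, gave -0.13, and Arrb2, an arrestin that ends their signalling, gave -0.09. Of 14 chemokine receptors only 1 was called, beside 1.01% of all named genes. That was Ccr8 (0.71), with 5.14 and 5.86 in XCR1-deficient cells and 5.56 and 4.85 in WT. Measured against the limit it gave 0.43.

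The list of LPS sensing genes and Toll-like receptor adaptors had 1 of 24 members called, beside 1.01% of all named genes. Ly96, which encodes MD-2, the protein that binds LPS on Toll-like receptor 4, read 10.15 and 9.90 in WT and 10.30 and 9.36 in XCR1-deficient cells, a difference of -0.94. The 3 other arrays lay within 9.90 to 10.30, and the array with LPS and XCL1 lay below them. Tlr4 was below the limit on both XCR1-deficient arrays (4.70 and 4.71). Cd14, the LPS co-receptor, differed by 0.13.

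With 1.01% of all named genes called, 0 in any list of the size below is close to that share. NF-kB subunits, inhibitors and targets had 0 of 23 called and a median of 0.11. Bcl3 (0.36) and Tnfaip2 (0.35) were highest and Zc3h12a, an RNase that degrades cytokine transcripts, lowest (-0.19). Inflammatory cytokines had 0 of 20 called and a median of 0.08. Il12b, the shared subunit of IL-12 and IL-23, gave 0.13, Il6 gave 0.11 and Tnf gave -0.06. Chemokine genes had 0 of 23 called, from -0.40 for Ccl25 to 0.43 for Ccl28. Maturation and co-stimulation genes had 0 of 20 called and a median of 0.04, with Cd86 at 0.05, Cd40 at 0.12 and Ccr7, which guides dendritic cells to lymph nodes, at -0.04.

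Type I interferon genes and interferon-stimulated genes had members at 1.5-fold in opposite directions. Of 14 interferon and interferon receptor genes 2 were lower and 0 higher, beside 0.542% and 0.47% of all named genes. Ifna4 read 7.91 and 7.45 in WT and 7.95 and 6.87 in XCR1-deficient cells, a difference of -1.08. Ifna7 read 6.48 and 6.06 in WT and 6.38 and 5.65 in XCR1-deficient cells, a difference of -0.74. Ifna genes are near-identical copies, so the assignment to a member is uncertain, and other members gave 0.30 (Ifna14), 0.12 (Ifna1) and 0.05 (Ifna15).

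Of 50 interferon-stimulated genes 2 were higher and 0 lower, beside 0.47% and 0.542% of all named genes. Their median was 0.09 and 39 were above 0, as were most named genes. Bst2, the membrane protein tetherin that holds budding virus, read 9.52 and 10.00 in WT and 9.82 and 10.79 in XCR1-deficient cells, a difference of 0.97. Ifit3b, of the family that binds viral RNA, read 6.28 and 6.55 in WT and 5.87 and 6.69 in XCR1-deficient cells, a difference of 0.82. The array with LPS and XCL1 was the highest of the 4 for both. The other 48 lay between -0.19 and 0.34.

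Antigen presentation and metabolism genes stayed under 1.5-fold in the lists below. Their counts of 0 are again close to the share of 1.01% of all named genes called. MHC class I genes had 0 of 16 called and a median of 0.14, with the peptide transporter genes Tap1 and Tap2 at 0.21 and 0.33 and B2m at 0.00. MHC class II genes had 0 of 15 called. Cholesterol and fatty acid synthesis genes had 0 of 25 called and a median of 0.14, with 23 above 0, from -0.18 for Tm7sf2 to 0.38 for Lss, the lanosterol synthase. In the WT pair the same list had a median of 0.10 with 20 above 0. Glycolysis genes had 0 of 17 called and a median of 0.19, with Hk2, a hexokinase, at 0.44 and Gapdh at -0.29.

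The lists of proteasome, respiratory chain and ribosomal genes had 1 or 2 members called each, beside 1.01% of all named genes. Psma5, a proteasome core subunit, read 5.36 and 6.24 in XCR1-deficient cells (0.88), while 44 other proteasome genes were within 1.5-fold and the list median was 0.03. Its second probe set gave -0.03. Pet100, an assembly factor of respiratory complex IV, read 5.86 and 6.79 (0.93), in a list of 28 with a median of 0.05. Atp5h, a subunit of ATP synthase, read 10.54 and 9.94 (-0.60), while its other, dimmer probe set gave 0.36. Atp5g1, another subunit of ATP synthase, read 5.54 and 4.86 (-0.67), or -0.11 against the limit. These were the 2 called of 57 other oxidative phosphorylation genes, whose median was 0.06, and Atp5e, also of ATP synthase, gave 0.55. Rpl5, a ribosomal protein that carries 5S RNA and spans Snord21, gave -0.74, in a list of 54 with a median of -0.00.

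Among other called genes, Gabarapl1, a member of the ATG8 family of autophagy, read 6.27 and 6.47 in WT and 5.62 and 6.57 in XCR1-deficient cells (0.95). Dusp4, a phosphatase that switches off MAP kinases, read 6.46 and 6.84 in WT and 5.75 and 6.51 in XCR1-deficient cells (0.77). In both, the array with LPS alone was the lowest of the 4. Hamp, which encodes the iron hormone hepcidin, read 7.71 and 7.35 in WT and 9.07 and 7.86 in XCR1-deficient cells (-1.21), so that the array with LPS alone stood above the 3 others. Gstp1, a glutathione transferase, read 7.46 and 7.60 in WT and 7.36 and 6.53 in XCR1-deficient cells (-0.83). Mt2, a metallothionein, read 7.50 and 7.97 in WT and 7.57 and 6.94 in XCR1-deficient cells (-0.63).

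**Figure D4:**
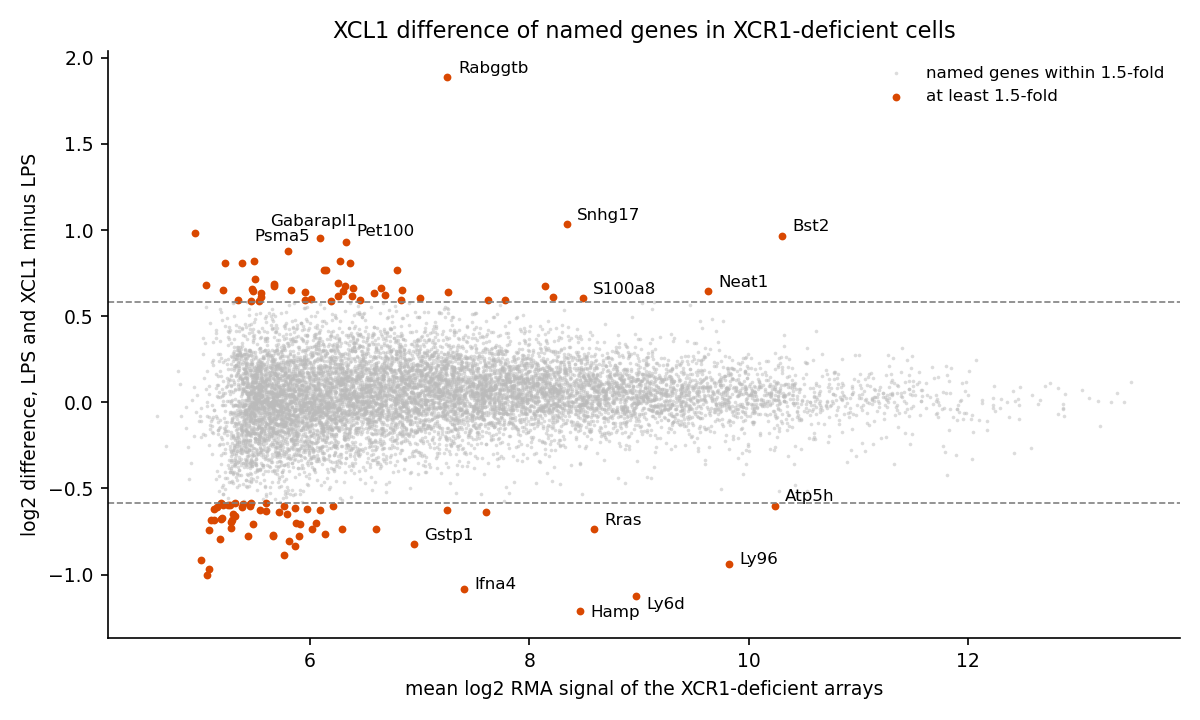
Log2 difference of each named gene (LPS and XCL1 minus LPS) against its mean log2 RMA signal on the XCR1-deficient arrays; orange points differ at least 1.5-fold, the dashed lines. Most called genes are dim, and 10 have a mean signal over the 4 arrays of at least 8.

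Most called genes were dim. Of genes with a mean signal under 6 over the 4 arrays 2.30% were called, with 21 higher and 44 lower, and of genes at 10 or more 0.342% were called. At a mean of at least 8, 10 of 3091 genes were called (0.324%). The 6 higher were Snhg17, Bst2, the aldehyde dehydrogenase Aldh2 (0.67), the nuclear paraspeckle RNA Neat1 (0.65), Ptcd3 and S100a8. The 4 lower were Ly6d, Ly96, the small GTPase Rras (-0.74) and Atp5h. Of the 112 called genes 53 had a signal below the limit on 1 XCR1-deficient array. With such signals raised to the limit 66 genes remained past 1.5-fold, 37 higher and 29 lower. Among those that did not were Vaultrc5, a vault RNA gene (0.98 as measured, 0.02 against the limit), Btbd35f17 (-0.79 and -0.15) and Nctc1 (-0.92 and -0.03).

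As with the small nucleolar RNAs, both arrays stood away from WT for many called genes. Of the 52 higher genes, the array with LPS alone was below both WT arrays for 36, and the array with LPS and XCL1 was above both for 43. Of the 60 lower genes, the array with LPS alone was above both for 48, and the array with LPS and XCL1 was below both for 49. These counts are likewise a description. The number called in both pairs was 3, which is 2.68% of the calls in XCR1-deficient cells, beside 0.56% of all named genes called in WT. It is 4.84% of the calls in WT, beside 1.01% of all named genes called in XCR1-deficient cells. Dim genes were called more often in both pairs. Rabggtb went the same way in both, and Ccr8 and Ptma-ps2 went opposite ways.

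Markers of cDC1 differed by less than 1.5-fold between the XCR1-deficient arrays. Of 21 cDC1 markers past the limit 0 were called, beside 1.01% of all named genes, and the median was 0.00. Values ran from -0.43 for Xcr1, the gene of the missing receptor, to 0.57 for Snx22, just under the threshold. Id2, Irf8 and Batf3, transcription regulators of the lineage, read 12.12 and 12.13, 10.05 and 10.16, and 6.98 and 6.95. Itgae, which encodes CD103, was below the limit on all 4 arrays. The summed signal of the list was 14.09 with LPS and 14.10 with LPS and XCL1 on the log2 scale.

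Markers of other cells also gave signal. In XCR1-deficient cells Siglech, a defining gene of plasmacytoid dendritic cells, read 8.14 and 8.01, and the B cell gene Ms4a1 8.40 and 8.62. The T cell gene Cd3e read 7.55 and 7.13, and the macrophage gene Adgre1 7.47 and 7.21. These genes show that signal was present and not which way their lists went. List medians were 0.10 (plasmacytoid), -0.02 (B cell), -0.01 (T cell) and 0.13 (macrophage and monocyte). Members that went the other way include Tcf4 (0.22), Cd79a (-0.22), Cd4 (0.14) and Lyz2 (0.49). Beside 0.47% higher and 0.542% lower of all named genes, the plasmacytoid list had 1 of 13 higher (Bst2) and 1 lower. That was Ly6d, a surface protein of lymphoid progenitors, with 9.89 and 9.64 in WT and 9.54 and 8.41 in XCR1-deficient cells (-1.12). The other 11 lay between -0.20 and 0.22, and the summed log2 signal was 12.13 with LPS and 12.27 with LPS and XCL1. Bright members weigh most in such sums, here among them Bst2 (9.82 and 10.79), which is also in the interferon-stimulated list. The sums are therefore no measure of the number of cells of a type.

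The neutrophil list had 1 of 14 higher, beside 0.47% of all named genes. That was S100a8, with 7.92 and 7.68 in WT and 8.18 and 8.79 in XCR1-deficient cells (0.61). Its partner S100a9 gave 0.18, Ly6g and Retnlg were below the limit, and the summed log2 signal was 11.48 and 11.58. B cell (13), T cell (12) and macrophage (18) lists had no member called, beside 1.01% of all named genes. Their summed log2 signals were 11.38 and 11.35, 11.25 and 11.17, and 12.77 and 12.85. The part of other cells in the differences was not tested. In such bulk samples, fewer cells of a type and less RNA per cell cannot be told apart.

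**Figure D5:**
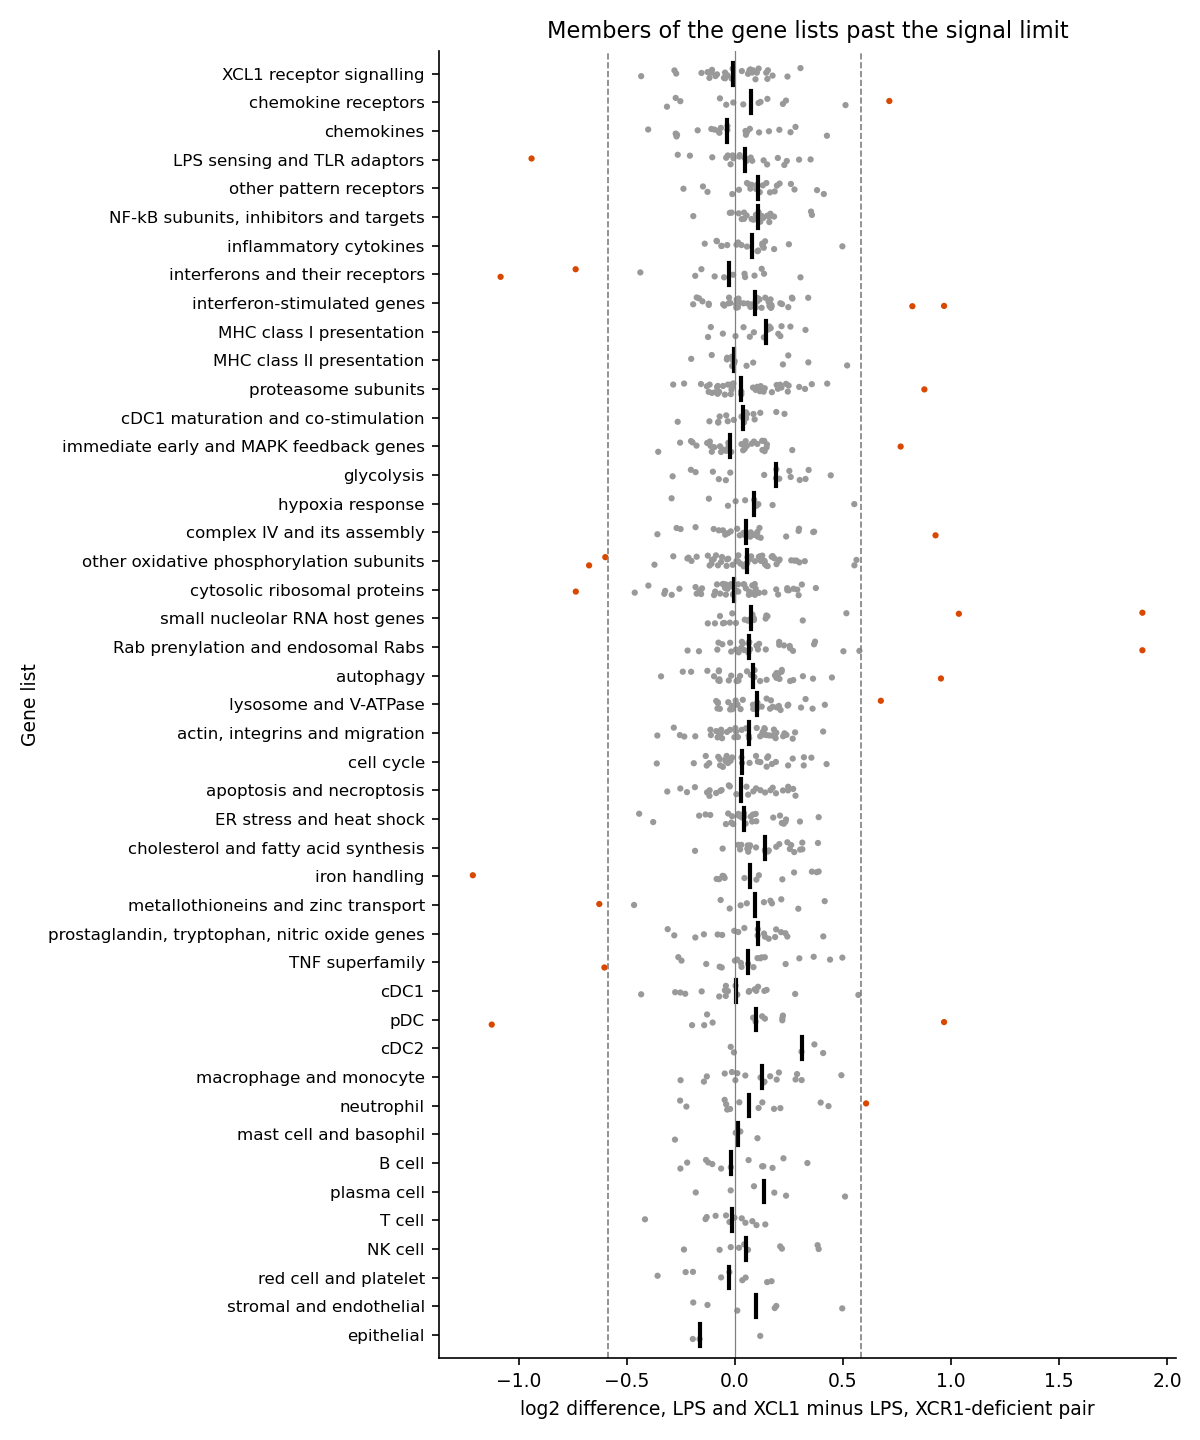
Log2 difference of each member past the signal limit in 45 gene lists in the XCR1-deficient pair; black bars are list medians, orange points differ at least 1.5-fold, the dashed lines. Most lists have medians near 0 and 27 of 45 have no member past 1.5-fold.

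Over all 45 lists, 11 of 962 distinct genes were higher and 10 lower, or 2.18%, beside 1.01% of all named genes. The lists were chosen with earlier results of these data known, so this share is a description and no sign of enrichment. No list had a median beyond 0.31 in either direction. The value of 0.31 belonged to 5 of the 11 markers of cDC2, the other conventional subset, that were past the limit. With no limit on signal it was 0.13 over all 11, under the 0.16 of glycolysis genes.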

How the data were processed

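Total RNA was isolated with TRIzol, and biotin-labelled sense cDNA made from it was read on MoGene ST 2.0 arrays, per the labels' protocols. The authors deposited log2 signals summarised by RMA for each gene-level probe set, per the labels' descriptions. This method equalises the arrays, so a shift of most genes one way cannot be seen. No label names the software, its version or the annotation build, and the table holds no detection flags. Array medians were 5.43, 5.40, 5.44 and 5.44.

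Of 41345 probe sets, 25335 were annotated, of which 23521 carried 1 symbol and 1814 several. The other 16010 had no name in the annotation used. Classes, lengths and hosts came from RefSeq (GRCm38.p6), matched by gene ID for 23328 probe sets. Its coordinates are printed only for sequences, which came from RefSeq tables. All 12 called microRNA genes matched. The named genes leave out probe sets with several symbols and 4844 others, of predicted genes, small RNAs, olfactory receptors and receptor segments. The vault RNA gene Vaultrc5 was not left out and counts as a named gene. The probe set with the highest mean stood for a gene. This left 17511 named genes, and 11068 of these reached the limit of 5.43, the median over the whole table, on 1 or more of the 4 arrays. Small RNAs and other classes were counted apart under the same limit. No test was run on differences of single arrays.

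Named genes were the 15 largest differences each way, list members at 1.5-fold, up to 4 further members with the largest differences in each list, Xcr1, Xcl1, Tlr4, Ly96, Cd14, their other probe sets, and the 5 largest each way of small and predicted RNAs. Other list members, other small nucleolar RNAs and their hosts, other microRNAs and small RNAs, bright called genes and marker values were chosen after their values were seen. The comparison, its lists and rules were chosen with earlier results of these data known. The counting code was run on simulated arrays only to check that planted differences were found. Their noise was equal for all genes and smaller than the spread over all named genes here, and false calls were not checked. Alternatives changed the signal limit, the scaling, the probe set rule, the classes kept and the fold. Tools were Python 3.11.15 with pandas 2.3.3, and R 4.3.3 with limma 3.58.1 for cyclic loess.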

Additional observations from a re-analysis of the deposited data

Results flagged for a closer look

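For Ccr8, Ptma-ps2 and the microRNA genes Mir3473c and Mir3961 the XCL1 difference went one way in XCR1-deficient cells and the other way in WT cells, each at 1.5-fold. Ccr8, a chemokine receptor gene, gave 0.71 in XCR1-deficient cells and -0.71 in WT, 1.43 apart. The pseudogene Ptma-ps2 gave 0.65 and -0.73, 1.38 apart. Mir3473c gave -1.11 and 0.93, a difference of -2.04 between the genotypes, and Mir3961 gave 0.60 and -0.65, 1.25 apart. With 1 array a group the difference between the genotypes was not tested. All 4 are dim, and against the signal limit the differences were 0.43 and -0.13 for Ccr8 and 0.10 and 0.00 for Ptma-ps2. For the microRNA genes the difference in XCR1-deficient cells changed little against the limit, at -1.10 for Mir3473c and 0.58 for Mir3961.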

How the results depend on the processing

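The limit on signal moved the number of genes called, and centring moved their split. Against 112 named genes (52 higher, 60 lower) and 223 annotated probe sets, no limit gave 222 (100, 122) and 469, a limit of 6.91 gave 27 (17, 10) and 80, and a limit on both XCR1-deficient arrays gave 59 (35, 24) and 131. Raising dim signals to the limit gave 66 (37, 29) and 147. Centring each array gave 113, with 25 higher and 88 lower. Keeping predicted genes and small RNAs gave 183, with 93 higher and 90 lower. At 2-fold 6 genes (2 higher, 4 lower) and 26 probe sets were left. Cyclic loess, quantile scaling of the XCR1-deficient pair and the mean of probe sets gave 101, 103 and 101. For small nucleolar RNAs, an alternative chosen after seeing the data, 18 to 23 were higher under the settings run at 1.5-fold and 8 at 2-fold, and 0 were lower in any, with medians from 0.34 to 0.41. Over the alternatives run for single genes and list medians, 26 of 1552 gene values moved by more than the spread between probe sets of a gene (SD 0.210), 18 of them on raising dim signals and 8 on averaging probe sets. In the latter Snhg17 gave 0.74, Psma5 0.42 and Atp5h -0.12. A changed limit on signal left a gene's own difference as it was, and centring moved every gene by only -0.07. Gene values under those settings could not count as moved, so the share is no measure of robustness. The 368 medians of lists and of small nucleolar RNAs did not move by more than this SD. No paired analysis was possible because each group has 1 array. One array a group limits the precision, and signals near the limit are not a measured background.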

Other observations

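Of annotated probe sets past the limit 1.57% were called in the XCR1-deficient pair and 0.95% in the WT pair. Of 8457 probe sets past it with no gene name here, 711 were higher and 460 lower in the XCR1-deficient pair, or 13.8%, and 10.6% were called in the WT pair. Olfactory receptor genes had 1 higher and 7 lower of 96 (8.33%), and pseudogenes had 2 higher and 5 lower of 173 (4.05%). Long non-coding RNA genes had 6 higher and 5 lower of 505 (2.18%), with a median of -0.03.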
